A study of Mus musculus with 4 samples.

Results

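The subject is the baseline transcript profile of Dll1-positive mouse mammary tumor cells that had received no radiation. Samples were assigned to this group by the treatment label, and 2 of the 4 samples of the series carried the label for no radiation. The group itself and the gene lists were chosen for description with earlier results of these data known. The irradiated samples do not enter any value given here. Both samples came from C57BL/6 mice with MMTV-PyMT tumors, in which a mouse mammary tumor virus promoter, active in mammary epithelium, drives the polyoma middle T oncogene. The cells carried an mCherry reporter of Dll1, and per the design text Dll1-positive tumor cells had been injected into the mammary fat pad, so the tumors were transplants. Tumors were digested with collagenase and hyaluronidase, and antibodies against CD45, CD31 and TER119, marks of blood cells, endothelium and red cells, were used to enrich tumor cells. mCherry-positive cells were then collected. The labels give no age and do not say whether the samples came from separate animals, so the spread between them may be technical. They are called library 1 and library 2, and paired values are given in that order.

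Dll1 is a membrane ligand that activates Notch receptors on a neighbouring cell, where the receptor is cut and its inner part moves to the nucleus to switch on Hes and Hey genes. The mammary epithelium has a luminal layer, which makes milk and expresses keratins 8 and 18, and a basal layer of contractile myoepithelial cells, which expresses keratins 5 and 14. Luminal progenitors carry the receptor KIT and the transcription factor ELF5, while mature hormone-sensing luminal cells carry the estrogen and progesterone receptors. Immediate early genes such as Fos and Jun are transcribed within minutes of a growth or stress signal, and heat shock genes encode chaperones that hold or refold proteins.

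Library 1 held 20817997 counts and library 2 held 16811888, assigned to 54532 genes. CPM is a gene's count divided by its library's total and multiplied by 1e6, and CPM per kilobase divides it by the gene length deposited with the counts. Levels of different genes are compared on the second scale. Ranks by CPM and shares of counts are also given, and these are not corrected for gene length. A gene was called detected at 1 CPM or more in both libraries, which 13554 genes were. Among 22046 protein-coding genes 12395 (56.2%) were detected, and the detected ones had a median of 6.47 CPM per kilobase. The smallest share that 3 counts represent was 0.144 CPM in library 1 and 0.178 CPM in library 2. The libraries differed by more than counting noise, with a chi-square of 5.01 per gene over 13366 genes. Of the 13554 detected genes 56 (0.413%) lay over 2-fold apart. As bulk values, they cannot separate fewer cells of a type from less RNA per cell.

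The genes that mark the population were all detected, at levels that spanned 2 orders of magnitude. Epcam, which encodes an epithelial adhesion molecule, was at 1444 and 1415 CPM, or 708 and 694 CPM per kilobase. Kit, the receptor gene of luminal progenitors, was at 341 and 379 CPM, or 38.2 and 42.5 CPM per kilobase. Dll1 itself was at 130 CPM in each library, or 30.8 CPM per kilobase in each. Dll1 was thus present in both libraries at nearly the same level, ranking 1527 of 54532 genes by CPM per kilobase. The exons of Dll1 (ENSMUSG00000014773; mm10 chromosome 17, 15367354 to 15376872) share 20.5% of their bases with those of other annotated genes. Because the libraries carry no strand information, reads from those bases cannot be assigned to a gene by strand. Whether such reads were counted or left out is not given, so the level of Dll1 is uncertain to that extent. A sort on mCherry protein does not by itself set the level of Dll1 RNA, and no mCherry-negative cells are part of the series.

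The 10 genes with the most counts held 8.18% and 8.11% of the libraries, and the 100 with the most held 25.6% and 25.0%. Fos came first, at 12765 and 12314 CPM, which is 1.28% and 1.23% of all counts. It was followed by Hspa1b, a heat-inducible HSP70 gene, at 9583 and 10245 CPM, and by Fosb, a Fos family gene, at 9303 and 9787 CPM. Igfbp5, which encodes a secreted binding protein of insulin-like growth factors, was at 8129 and 8614 CPM, and Jun at 7987 and 8082 CPM. Next were 2 constitutive chaperones, Hsp90ab1 at 7492 and 7372 CPM and Hspa8 at 7037 and 6751 CPM. Csn3, the gene of the milk protein kappa-casein, was at 7095 and 6261 CPM, higher in library 1. The plot of the highest genes by library shows that both libraries had almost the same order.

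**Figure D1:**
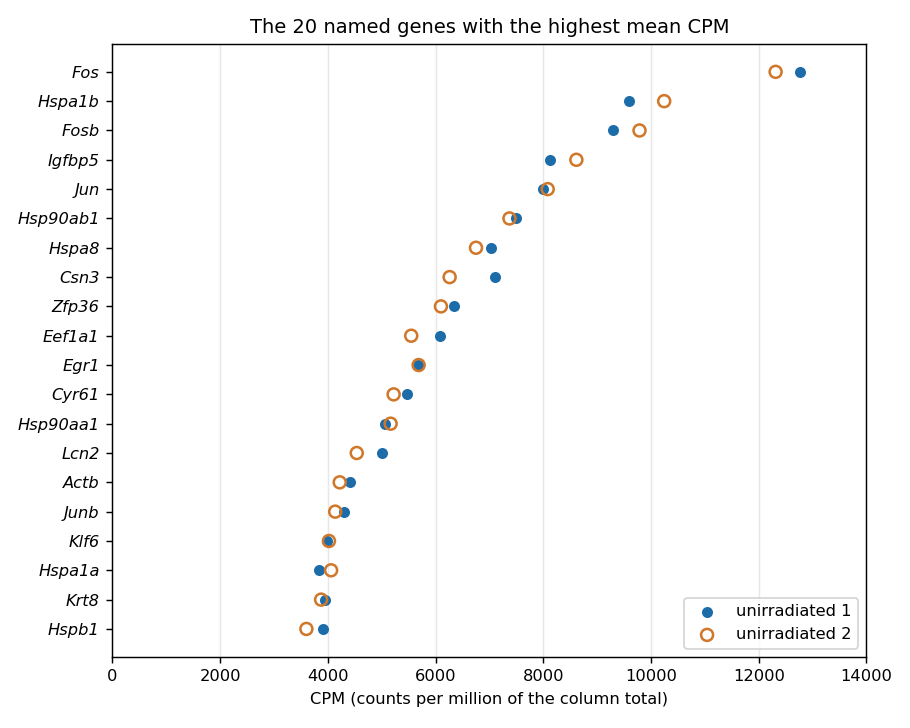
CPM of the 20 genes with the highest mean CPM, leaving out predicted and mitochondrial genes; filled blue points are library 1 (unirradiated 1) and open orange circles library 2 (unirradiated 2). Fos lies at 12765 and 12314 CPM, and immediate early and heat shock genes take most of the upper rows, with Igfbp5 and Csn3 among them.

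Dividing by length changed the order below Fos. Fos was at 5427 and 5235 CPM per kilobase, above every other gene with an established symbol in both libraries. The single gene above it was a predicted transcript of 57 bases, Gm23935, for which a length-scaled value rests on very few bases. Hspb1, which encodes a small chaperone, came next among nuclear genes at 3791 and 3493 CPM per kilobase, overlapping Hspa1b at 3419 and 3655. Cyr61, the gene of a secreted matrix-associated protein, was at 2712 and 2586 CPM per kilobase. Jun, at 2505 and 2534, lay below Cyr61 in both libraries, and Hsp90ab1 was at 2498 and 2458. Of the 50 genes highest by CPM and the 50 highest by CPM per kilobase, 36 were shared. Housekeeping genes lay in the same range, with the elongation factor gene Eef1a1 at 2440 and 2225 and the actin gene Actb at 1644 and 1575 CPM per kilobase.

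Immediate early genes stood high as a class. All 37 genes of a list of them were detected, 25 had a mean of at least 100 CPM per kilobase, and together they held 7.24% and 7.18% of all counts. Their median was 209 CPM per kilobase against 6.47 for detected protein-coding genes. This list, like the heat shock list and the others, was chosen with earlier results of these data known. Its height over that background is therefore a description and no test. Besides Fos, Fosb and Jun, Junb was at 1872 and 1798 CPM per kilobase, Atf3 at 1749 and 1664 and Egr1 at 1266 and 1268. Junb and Atf3 encode partners in the AP-1 class of dimers, and Egr1 encodes a zinc finger factor. Zfp36, whose product speeds the decay of cytokine messengers, was at 1828 and 1758 CPM per kilobase. The lowest member was the phosphatase gene Dusp2, a name added after its values were seen, at 3.03 and 2.14 CPM. The deposited table assigns a transcription factor family to 1469 genes, of which 899 were detected and which held 10.2% and 10.4% of all counts. The bZIP family, which holds Fos, Jun and Atf3, took 43.0% and 42.3% of those counts, and C2H2 zinc finger genes took 18.7% and 18.8%.

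Heat shock genes were also abundant as a class. All 14 listed genes were detected, 12 had at least 100 CPM per kilobase, the median was 610 CPM per kilobase, and the list held 4.47% and 4.51% of counts. For scale, the 84 cytosolic ribosomal protein genes held 4.94% and 4.39% of counts, with a median of 312 CPM per kilobase. As a share of summed CPM per kilobase, ribosomal protein genes held 8.69%, immediate early genes 7.33% and heat shock genes 4.82%. Hspa1a, the near-identical neighbour of Hspa1b, was at 1296 and 1369 CPM per kilobase, and reads shared by the pair make the split between them uncertain. Hsp90aa1, the inducible HSP90 gene, was at 1288 and 1314 CPM per kilobase and Hspa8 at 1636 and 1570. Immediate early and heat shock genes are both known to respond quickly to enzymatic digestion of tissue. The series holds no undigested sample, so the levels of these genes in the intact tumor were not measured.

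Start-site sequences are shown because both classes are known to be driven by short promoter elements. They are those of Fos, the immediate early gene with the most CPM per kilobase, and of 3 heat shock genes. These 3 have the most CPM per kilobase among the listed heat shock genes whose RefSeq window held GAANNTTC, a choice made with the values known. Each sequence is the 150 bases that end just before the annotated start of the gene, from RefSeq on GRCm38.p6, written along the gene's own strand. In the Fos window the capitals mark the core of the cAMP response element, TGACG, and the TATA box, TATAAA. In the heat shock windows they mark the inverted repeat of the heat shock element, GAANNTTC.
Fos, chr12:85473740-85473889, plus strand: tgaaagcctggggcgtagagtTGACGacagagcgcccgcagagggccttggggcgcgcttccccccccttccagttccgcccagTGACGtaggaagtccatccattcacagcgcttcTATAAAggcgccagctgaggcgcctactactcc
Hspa1b, chr17:34959239-34959388, minus strand: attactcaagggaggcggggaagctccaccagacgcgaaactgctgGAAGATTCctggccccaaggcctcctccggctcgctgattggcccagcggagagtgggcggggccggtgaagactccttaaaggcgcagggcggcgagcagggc
Hspa1a, chr17:34972157-34972306, minus strand: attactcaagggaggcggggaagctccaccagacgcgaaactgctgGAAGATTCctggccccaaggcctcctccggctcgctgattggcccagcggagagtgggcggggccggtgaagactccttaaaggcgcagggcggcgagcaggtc
Hspb1, chr5:135887769-135887918, plus strand: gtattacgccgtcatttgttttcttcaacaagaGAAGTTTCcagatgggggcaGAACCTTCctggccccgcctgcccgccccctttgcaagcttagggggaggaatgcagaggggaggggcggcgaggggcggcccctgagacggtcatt

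The TGACG matches of Fos begin 129 and 66 bases before the start, and TATAAA begins 33 bases before it. The GAANNTTC match of Hspa1b and of Hspa1a begins 104 bases before the start, and those of Hspb1 begin 117 and 97 bases before it. The windows of Hspa1b and Hspa1a are identical at 149 of 150 bases (99.3%). Of 32851 RefSeq windows of 250 bases before a start, 6.69% held GAANNTTC, which reads the same on both strands, 17.8% held TGACG on either strand, and 7.59% held TATAAA on the gene's strand. Windows were found for 10 of the 14 heat shock genes, and 6 of the 10 held GAANNTTC, namely Dnaja1, Hspa1a, Hspa1b, Hspb1, Hspd1 and Hspe1, so the shown windows do not stand for the 4 without it. These matches describe letters and show no binding.

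Luminal keratin and epithelial junction genes were abundant. All 20 genes of the luminal keratin and adhesion list were detected, with a median of 91.1 CPM per kilobase, and they held 1.34% and 1.31% of counts. Krt8 was at 2020 and 1979 CPM per kilobase and Krt18 at 1852 and 1787, the highest members of the list. The tight junction genes Cldn4, at 647 and 612 CPM per kilobase, and Cldn3, at 467 and 435, were the highest claudins of the list. Krt19 was at 308 and 297 and Cd24a, a surface glycoprotein gene, at 211 and 205 CPM per kilobase.

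Genes of luminal progenitors and of hormone-sensing luminal cells were both present, with a higher median in the first list. All 13 progenitor genes were detected, with a median of 40.4 CPM per kilobase, against 9 of 11 hormone-sensing genes, with a median of 2.80. Ltf, the gene of the milk iron-binding protein lactoferrin, was at 218 and 220 CPM per kilobase, Cd14, a receptor gene for bacterial lipopolysaccharide, at 212 and 195, and the chemokine gene Cxcl1 at 157 and 143. The transcription factor gene Elf5 was at 46.4 and 47.5 CPM per kilobase. Levels overlapped between the lists. The hormone-sensing genes Ly6a, at 55.4 and 53.9 CPM per kilobase, Cited1, at 11.3 and 10.4, and Foxa1, at 10.67 and 10.46, were the highest of their list. Ly6a lay above Elf5 and Kit with the deposited gene length only. With the length of the principal transcript, Ly6a had a mean of 68.96 CPM per kilobase, below Elf5 at 109 and close to Kit at 69.01. The lowest progenitor gene, the integrin subunit gene Itga2, named after its values were seen, was at 2.01 and 1.69. Esr1, the estrogen receptor gene, was at 0.524 and 0.614 CPM per kilobase (7.16 and 8.39 CPM), and Pgr, the progesterone receptor gene, at 0.989 and 1.11. The hormone-sensing gene Prlr, which encodes the prolactin receptor, was at 4.87 and 5.50 CPM per kilobase. Tnfsf11, the gene of the progesterone-induced ligand RANKL, had at most 2 counts in a library. Both lists are short, and no test was made between them.

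The basal keratins were below Krt8, Krt18 and Krt19 in both libraries. Krt14 was at 68.4 and 64.7 CPM per kilobase, Krt17 at 42.9 and 41.1 and Krt5 at 27.6 and 28.0, beside 31.0 and 30.4 for the luminal keratin gene Krt7, which was named after its values were seen. The smooth muscle actin gene Acta2, a mark of myoepithelium and of other contractile cells, was at 79.5 and 75.1 CPM per kilobase. All 22 basal and myoepithelial genes were detected, with a median of 5.96 CPM per kilobase, close to the 6.47 of all detected protein-coding genes. The list held 0.937% and 0.990% of counts, nearly all of it from Igfbp5 at 1354 and 1434 CPM per kilobase. The integrin genes of the list, Itga6 at 33.3 and 36.2 and Itgb4 at 24.7 and 27.1 CPM per kilobase, are also on the list of stem cell markers.

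**Figure D2:**
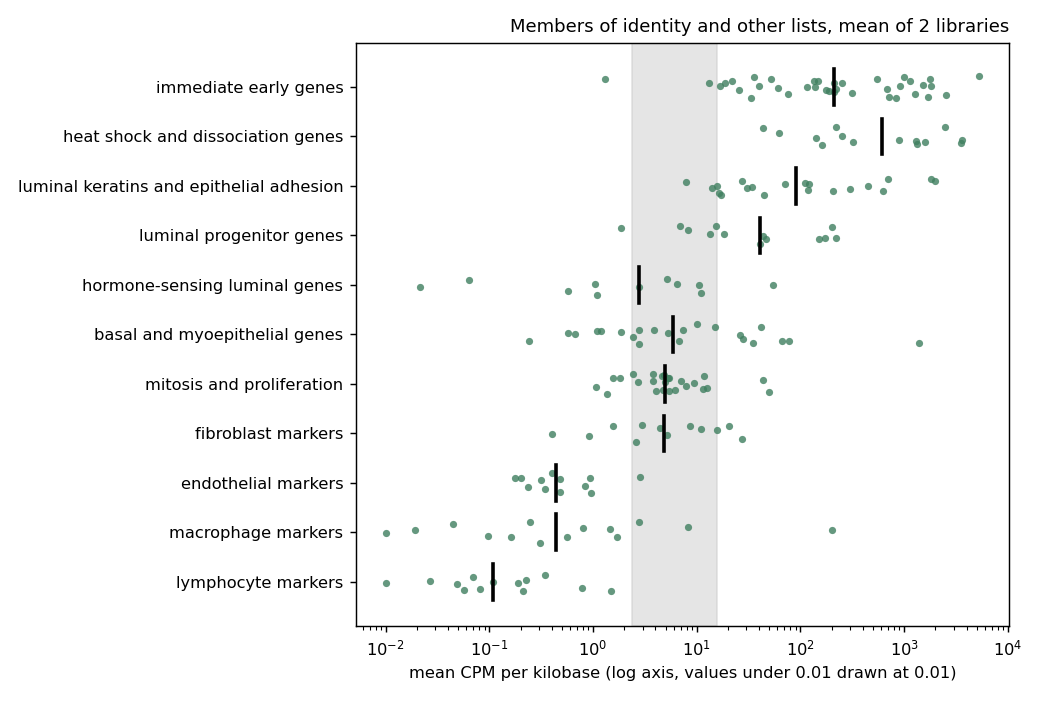
Mean CPM per kilobase over both libraries (log axis) of each member of 11 gene lists, 1 green point a gene, with the list median as a black bar; the grey band spans the middle 50% of detected protein-coding genes, 2.37 to 15.6 CPM per kilobase. Vertical position within a row is jittered only to separate points; the medians of the immediate early, heat shock, luminal keratin and luminal progenitor lists lie right of the band, and those of the endothelial, macrophage and lymphocyte lists lie left of it.

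Transcription factor genes of epithelial and luminal identity were detected throughout, 28 of 28, with a median of 22.0 CPM per kilobase. Cebpb, a factor of alveolar differentiation, was at 393 and 354 CPM per kilobase, although 20.7% of its exon bases overlap other genes. Xbp1, the transcription factor of the unfolded protein response, was at 338 and 331. With the length of the principal transcript, an alternative added after seeing the data, the order of Cebpb and Xbp1 turns, with means of 374 and 510 CPM per kilobase. Sox9 and Sox10, which encode related factors of epithelial and neural crest progenitors, were at 244 and 249 and at 170 and 175 CPM per kilobase. Tfap2c, an AP-2 factor gene of the mammary line, was at 106 and 107, and Ehf, an ETS factor gene of epithelia, at 99.6 and 102. The groups of Sox9 and Sox10 did not overlap with each other or with Tfap2c. Among 11 genes of the mesenchymal transition 10 were detected, with a median of 1.15 CPM per kilobase. The matrix protein gene Sparc, at 88.7 and 90.2, and the filament gene Vim, at 34.1 and 31.7 CPM per kilobase, were its highest members. Among the genes of repressors of epithelial genes, Snai1 was at 18.3 and 18.5 CPM per kilobase, whereas Snai2, Twist1, Zeb1 and Zeb2 were each under 2.

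Of 19 listed stem and tumor-initiating cell markers 16 were detected, with a median of 10.4 CPM per kilobase. After Sox9 and Cd24a the highest were the integrin gene Itgb1, at 84.2 and 87.0 CPM per kilobase, and Ly6a, the gene of the surface antigen SCA-1. The pluripotency genes Nanog, Sox2 and Pou5f1 had at most 3 counts in each library. All 25 mitosis and proliferation genes were detected, at a median of 4.92 CPM per kilobase. Pcna, the replication clamp gene, was at 50.7 and 48.6 and Ccnd1, the cyclin D1 gene, at 42.7 and 44.7 CPM per kilobase. The remaining named members of the list, the replication helicase genes Mcm6 at 12.5 in each library and Mcm5 at 9.28 and 9.40, the mitotic cyclin gene Ccnb2 at 11.42 and 12.01 and the reductase gene Rrm2 at 11.8 and 11.3 CPM per kilobase, lay well below those.

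Milk protein genes were strongly uneven. Csn3 was at 1709 and 1508 CPM per kilobase and Lalba, the gene of alpha-lactalbumin, at 348 and 313. The next members were Wap, the whey acidic protein gene, at 7.53 and 7.14 and Csn1s1, the alpha-S1-casein gene, at 5.41 and 5.27 CPM per kilobase. Csn2, the beta-casein gene, was at 4.80 and 3.51 CPM, which is 0.694 and 0.507 CPM per kilobase. Csn1s2b and Glycam1, a milk mucin gene, did not reach 1 CPM in both libraries. The 8 genes held 0.741% and 0.655% of counts, of which Csn3 was the bulk. All 6 detected members were higher in library 1, whereas 53.0% of all detected genes (46.8% with TMM scaling) were higher in library 2. Csn3 thus exceeded the other caseins per kilobase by more than 2 orders of magnitude in both libraries.

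Secreted defence proteins of epithelia were the largest secretory group by share. Lcn2, whose product lipocalin 2 captures bacterial iron carriers, was at 5001 and 4536 CPM, or 1906 and 1730 CPM per kilobase. Wfdc18, which encodes a small protein of the whey acidic protein family, was at 1066 and 956 CPM per kilobase, and B2m, the gene of the MHC class I light chain, at 1156 and 1045. Spp1, the osteopontin gene, was at 480 and 454 and Clu, the gene of the extracellular chaperone clusterin, at 252 and 239. Of 34 listed genes 25 were detected, 9 were at 100 CPM per kilobase or more, and the list held 1.20% and 1.12% of counts. These 5 genes were higher in library 1, as were 18 of the 25 detected, whereas Ltf was at 752 and 757 CPM; of all detected genes 53.0% were higher in library 2, or 46.8% with TMM scaling. At the low end, Wfdc21, Orm2, Lyz1 and Reg3g had at most 3 counts in each library.

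The machinery of secretion and of milk fat was broadly expressed. Of 33 genes of the secretory pathway and unfolded protein response 31 were detected, with a median of 42.0 CPM per kilobase and 0.914% and 0.882% of counts. The endoplasmic reticulum chaperone genes Hspa5, at 413 and 408 CPM per kilobase, and Calr, at 342 and 327, led with Xbp1. Of 28 milk fat genes 26 were detected, with a median of 25.7 CPM per kilobase. Srebf1, the master regulator gene of lipid synthesis, was at 260 and 266, Mfge8, a milk fat globule protein gene, at 165 and 158, and the desaturase gene Scd1 at 153 and 158 CPM per kilobase. Muc1, a mucin gene of the luminal surface, was at 93.4 and 93.5.

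Among 20 genes better known from saliva and other glands 9 were detected, and their levels again spread widely. Aqp5, a water channel gene, was at 251 and 242 CPM per kilobase. Scgb2b27, a secretoglobin gene, was at 246 and 215, its family member Scgb1b27 at 97.3 and 80.3, and Car6, the gene of a secreted carbonic anhydrase, at 61.3 and 50.5 CPM per kilobase. Bhlha15, a transcription factor gene of secretory cells, was at 21.8 and 20.8. Dcpp1, a parotid protein gene, was at 8.69 and 8.03 CPM. Mucl1, Mucl2 and Prb1 had 0 counts in both libraries. Secretoglobin and Dcpp genes have near-identical copies, which makes the values of single members uncertain. Of 31 ion and fluid transport genes 27 were detected, among them the chloride channel genes Clic6, at 141 and 140 CPM per kilobase, and Ano1, at 122 and 129. Of 38 protease, inhibitor and matrix genes 35 were detected. The lysosomal protease genes Ctsd and Ctsb were at 172 and 166 and at 133 and 126 CPM per kilobase, although 34.4% of the exon bases of Ctsd overlap other genes. The matrix glycoprotein gene Thbs1 was at 115 and 134, higher in library 2.

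**Figure D3:**
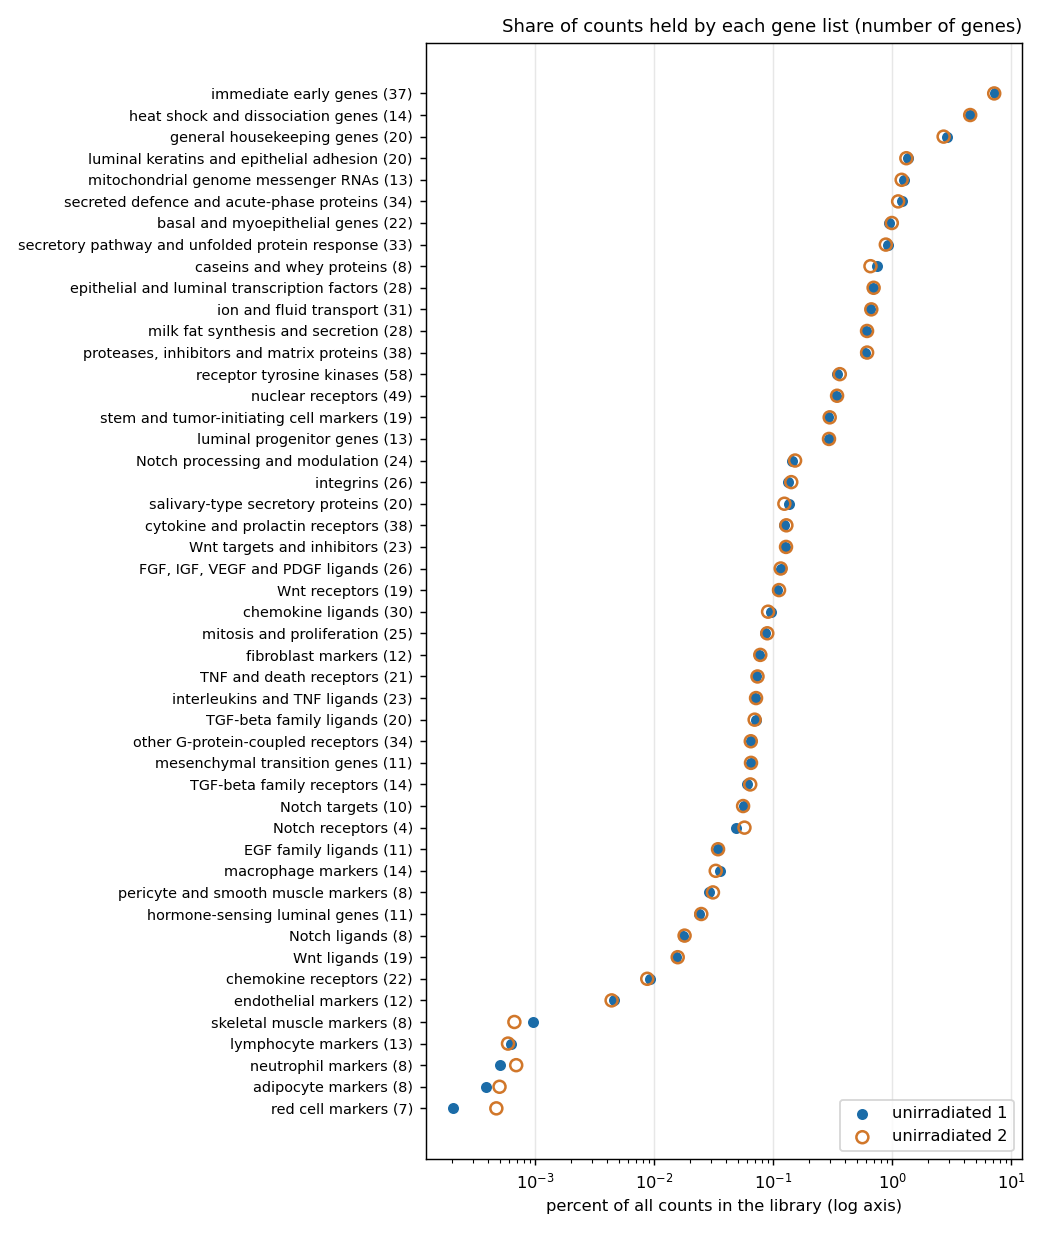
Percent of all counts (log axis) held by each of 48 gene lists in library 1 (unirradiated 1, filled blue) and library 2 (unirradiated 2, open orange), ordered by the mean of both; the number of genes in a list stands in brackets. Immediate early and heat shock genes are at the top with 7.24% and 4.47% in library 1, and the lymphocyte, neutrophil, adipocyte, muscle and red cell lists lie near 0.001% or below.

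Dll1 was the most abundant Notch ligand transcript. Of 8 ligand genes 4 were detected, and Dll1, at 30.8 CPM per kilobase in each library, lay above both libraries of Jag1 (2.98 and 3.03), Dll4 (2.46 and 3.15) and Jag2 (2.16 and 2.69), which encode the other activating ligands found here. The values of Jag2 overlapped those of Dll4, and the values of Dll4 those of Jag1. Dll3, which encodes an inhibitory relative, had 2 counts in each library, and Dner, a further Notch-binding protein gene, had 0 and 1. The sort was made on a reporter of Dll1, so its rank among the ligands is not independent of how the cells were collected.

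Notch receptor transcripts were present too. Notch1 was at 19.5 and 23.8 CPM per kilobase and Notch3 at 17.9 and 20.4, with overlapping ranges, while Notch2 was at 4.76 and 5.32 and Notch4 at 1.234 and 1.498. All 4 receptors were higher in library 2, as were 53.0% of all detected genes (46.8% with TMM scaling) and 74.4% of the 3389 longest. Among 10 target genes 7 were detected: Hes1 was at 128 and 122 CPM per kilobase, Hey1 at 80.4 and 80.2 and Hes6 at 17.9 and 16.1, and each of the other 7 was under 3. Hes1 and Hey1 encode repressors that Notch is known to induce, although other signals also do so. Of 24 genes that process or modulate Notch 22 were detected, with a median of 7.23 CPM per kilobase. Psenen and Ncstn, subunits of the gamma-secretase that cuts the receptor, were at 42.1 and 38.8 and at 36.9 and 37.9, and Numb, the gene of a Notch antagonist, was at 34.1 and 35.5.

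Other growth factor families each had few abundant ligands. Hbegf, the gene of heparin-binding EGF, was at 99.7 and 97.8 CPM per kilobase and Nrg2, a neuregulin gene, at 13.1 and 13.7. The remaining 9 EGF family ligands were each under 8 CPM per kilobase, and Nrg3 had 0 counts, which allows up to 0.144 and 0.178 CPM. Of 19 Wnt ligands 6 were detected, led by Wnt5b, which encodes a noncanonical ligand, at 31.6 and 33.8 and Wnt7b at 5.42 and 5.45 CPM per kilobase. Another 7 Wnt ligands, among them Wnt3, Wnt3a and Wnt7a, had at most 3 counts in each library. Ctnnb1, the gene of the Wnt effector beta-catenin, was at 87.5 and 89.1 CPM per kilobase and Rnf43, which encodes a feedback inhibitor, at 16.6 and 18.2.

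Of 20 TGF-beta family ligands 12 were detected, with Tgfb3 at 92.2 and 86.3 CPM per kilobase and Inhbb, an activin subunit gene, at 48.6 and 48.7. Of 26 FGF, IGF, VEGF, PDGF and related ligands 18 were detected. Gas6, the ligand gene of the TAM receptors, was at 97.6 and 94.1, Csf3, the gene of a neutrophil growth factor, at 76.6 and 71.9 and Vegfa, the main angiogenic factor gene, at 53.4 and 54.8 CPM per kilobase. Kitl, a name chosen after its values were seen because it encodes the ligand of KIT, was at 13.2 in each library. Transcripts of both KIT and its ligand were thus present, but bulk values cannot tell whether the same cells held both.

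Inflammatory ligands were led by neutrophil chemokines. Cxcl1 and Cxcl2, which encode ligands of CXCR2, were at 157 and 143 and at 146 and 135 CPM per kilobase, and Cx3cl1, the fractalkine gene, was at 48.3 and 50.3. Of 30 chemokine ligands 17 were detected, with a median of 0.844 over all 30. Among 23 interleukin and TNF ligands 13 were detected. Tnf was at 119 in each library and Lif, an IL-6 family cytokine gene, at 97.9 and 101 CPM per kilobase, while Il33, the alarmin gene that came next, was at 8.46 and 8.47.

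Receptor tyrosine kinases were mostly low, with a few epithelial members well expressed. Of 58 genes 42 were detected, and the median over all 58 was 1.05 CPM per kilobase, beside 0.992 for all protein-coding genes. Epha2, an ephrin receptor gene, was at 110 and 115 CPM per kilobase, Fgfr1, an FGF receptor gene, at 74.0 and 78.3, and Ddr1, a collagen receptor gene, at 60.4 and 59.8. Kit, at 38.2 and 42.5, overlapped Ptk7, a Wnt co-receptor gene, at 39.1 and 40.4. Ephb4, a receptor of ephrin B2, was at 34.4 and 36.0. The ErbB family was added after its values were seen. Erbb3 was at 30.2 and 33.8, Erbb2 at 18.6 and 19.4, and Egfr, the gene of the receptor that heparin-binding EGF activates, had a mean of 9.05 CPM per kilobase. Epha6, Epha8 and Ros1 had 0 counts in both libraries.

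**Figure D4:**
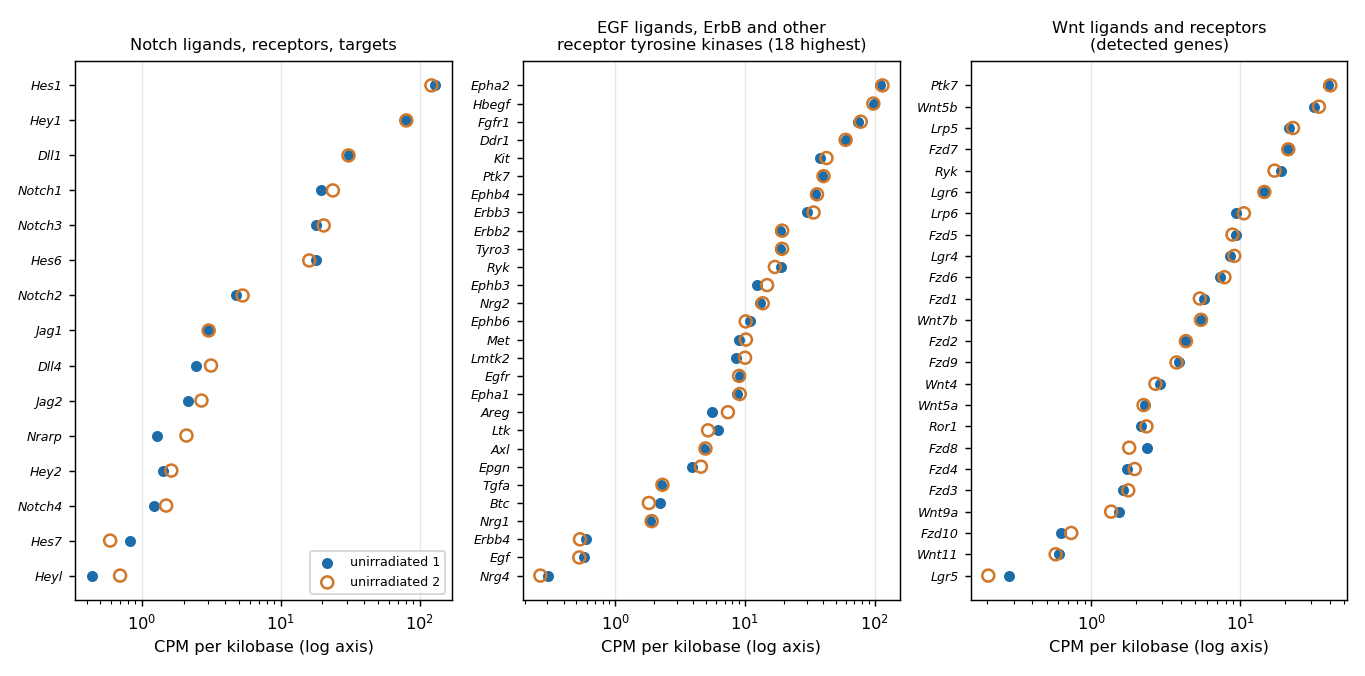
CPM per kilobase (log axis) of detected Notch genes (left), of EGF family ligands with the 18 highest receptor tyrosine kinases, Egfr and Erbb4 (middle), and of Wnt ligands and receptors (right); filled blue points are library 1 (unirradiated 1) and open orange circles library 2 (unirradiated 2). Dll1 at 30.8 CPM per kilobase lies above the other Notch ligands, Hbegf at 99.7 and 97.8 above the other EGF ligands, and Wnt5b at 31.6 and 33.8 above the other Wnt ligands.

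Nuclear receptors showed the same shape. Nr4a1, an immediate early orphan receptor gene, was at 551 CPM per kilobase in each library, far above Nr1h2, an oxysterol receptor gene, at 43.1 and 47.0. Of 49 genes 31 were detected, and 8 had 0 counts in both libraries. Of 26 integrins 18 were detected, with the shared beta-1 subunit gene Itgb1 highest and Itgb5, a vitronectin receptor subunit gene, at 29.4 and 29.1 CPM per kilobase. The laminin receptor subunit gene Itga3 was at 18.5 and 19.1.

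Of 38 cytokine receptors 28 (73.7%) were detected, beside 56.2% of all protein-coding genes, with a median of 3.71 CPM per kilobase over all 38. Csf2ra, the GM-CSF receptor gene, was at 33.3 and 32.5, and Il17rc and Il17re, which encode subunits of epithelial IL-17 receptors, at 24.3 and 23.1 and at 19.1 and 20.5. In the TNF receptor family, 18 of 21 were detected, with Tnfrsf12a, the TWEAK receptor gene, at 124 and 125 and Tnfrsf1a, the main TNF receptor gene, at 57.3 and 53.9 CPM per kilobase. Of 14 TGF-beta family receptors 12 were detected, led by Tgfbr2 at 23.6 and 25.2. Of 19 Wnt receptors 18 (94.7%) were detected and of 19 Wnt ligands 6 (31.6%), beside 56.2% of all protein-coding genes. The detection limit in CPM is not corrected for gene length, and the part of length in this difference was not tested. The co-receptor gene Lrp5 was at 21.3 and 22.6, the Frizzled gene Fzd7 at 20.50 and 21.04 and Lgr6, an R-spondin receptor gene, at 14.4 and 14.5 CPM per kilobase. Chemokine receptors were the sparsest of the receptor lists, with 3 of 22 (13.6%) detected. Cxcr4, the CXCL12 receptor gene, was at 35.0 and 32.7 and the scavenging receptor gene Ackr3 at 6.73 and 6.54, while Cxcr1, Ccr3 and Ccr6 had 0 counts. Of 34 other G-protein-coupled receptors 22 were detected, with the adhesion receptor gene Adgrg1 at 29.5 and 28.3, the protease-activated receptor gene F2rl1 at 16.8 and 18.1, and Smo, the Hedgehog effector gene, at 15.7 and 16.5 CPM per kilobase.

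Markers of the cell types the sort was meant to remove were low, as were those of adipocytes and muscle, which it did not target. Ptprc, which encodes CD45, was at 2.40 and 1.19 CPM, and Pecam1, which encodes CD31, at 6.97 and 5.00 CPM. The 12 endothelial markers summed to 0.00459% and 0.00437% of counts, and 10 were detected. The 14 macrophage markers summed to 0.0359% and 0.0328%, of which Cd14 made up nearly all, at 334 and 306 CPM. Cd14 is also a luminal progenitor gene, and the macrophage receptor gene Csf1r, added after its values were seen, was at 1.54 and 0.892 CPM. Of 13 lymphocyte markers 1 was detected, the B cell gene Cd79a, and Klrb1c was at 0 in both libraries. Of the 8 neutrophil, 7 red cell, 8 adipocyte and 8 muscle markers 1, 1, 1 and 2 were detected, and Ly6g, Hba-a2, Myh4 and Tnnt3 were at 0 in both libraries.

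Fibroblast markers had a median of 4.83 CPM per kilobase, against 0.439 for the endothelial and 0.436 for the macrophage list. No antibody was used against fibroblasts, adipocytes or muscle, and the part of the sort in these levels was not tested. All 12 fibroblast markers were detected and summed to 0.0751% and 0.0776% of counts. As a share of summed CPM per kilobase they held 0.0304%, below the 0.0663% of the macrophage list, which includes Cd14. The collagen genes Col1a1 and Col3a1 were at 174 and 185 and at 194 and 206 CPM, and Dcn, the decorin gene, was at 52.4 and 47.6 CPM. The receptor gene Pdgfra was at 9.37 and 8.98 CPM and the surface protease gene Fap at 2.498 and 2.022 CPM. The 8 pericyte and smooth muscle markers were all detected and summed to 0.0288% and 0.0311%, mostly from Notch3 and the adhesion gene Mcam. Acta2, Sparc, Vim, Notch3 and the collagens are expressed by fibroblasts or pericytes as well as by some tumor cells, and the part of such cells in these values was not tested.

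Genes of the mitochondrial genome held 1.24% and 1.20% of counts in their 13 messenger RNAs. These were uneven: mt-Co1 was at 3726 and 3624 CPM per kilobase, but mt-Co2 at 35.8 and 35.9, a neighbouring subunit gene of the same enzyme. Mitochondrial genes have near-identical copies in the nuclear genome, which makes the values of single members uncertain, and mt-Co2 was named after its value was seen.

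The libraries differed slightly and in relation to gene length. Library 2 was higher in 53.0% of the 13554 detected genes, or 46.8% with TMM scaling, but without TMM in 34.0% of the 3391 shortest and 74.4% of the 3389 longest. The median log2 ratio of library 2 to library 1 was -0.07 in the shortest group and 0.09 in the longest. Across genes, which are not independent replicates, Spearman's rho between gene length and the log2 ratio was 0.32. Against the background of 53.0%, 1 of 81 detected cytosolic ribosomal protein genes, 7 of 25 defence genes and 0 of 6 milk protein genes were higher in library 2, as were 31 of 42 receptor tyrosine kinases, 24 of 31 nuclear receptors and 4 of 4 Notch receptors. These lists also differ in gene length, with a median of 1770 bases for the ribosomal genes and 7080 for the receptor kinases. The part of length in these differences was not tested further. Among genes of at least 10 CPM in 1 library, the furthest apart were Mamdc4, a membrane protein gene, at 6.773 and 11.004 CPM, and Zbtb16, a zinc finger factor gene, at 6.63 and 10.8 CPM. In the other direction were the histone gene Hist1h4h, at 12.9 and 7.73 CPM, and Cd74, which encodes the MHC class II chaperone, at 21.4 and 13.1 CPM, and all 4 differences were under 2-fold.

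Levels per kilobase also depended on which length was used. For 98.0% of the gene IDs found in GENCODE M21 the deposited length equalled the union of all exons of the gene. For some genes it was shorter than the M21 principal transcript, as for Acta2, at 1781 against 2035 bases. For 19.9% of 12374 detected protein-coding genes the deposited length was over 2 times the length of the principal transcript. With the principal transcript's length, a choice made after seeing the data, Lcn2 was at 5212 and Csn3 at 4184 CPM per kilobase, next after Fos at 5948. Other orders turned too: Hsp90ab1, at 2949, lay above Cyr61, at 2649, and Actb, at 2246, above Krt8, at 2000, and Krt18, at 1820. Fos stayed first, and the values of Krt8, Igfbp5 and Epcam hardly moved. Csn1s1 was at 23.6 CPM per kilobase on that scale against 5.34 on the deposited one, still far below Csn3. Dll1 moved from 30.8 to 36.3.

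**Figure D5:**
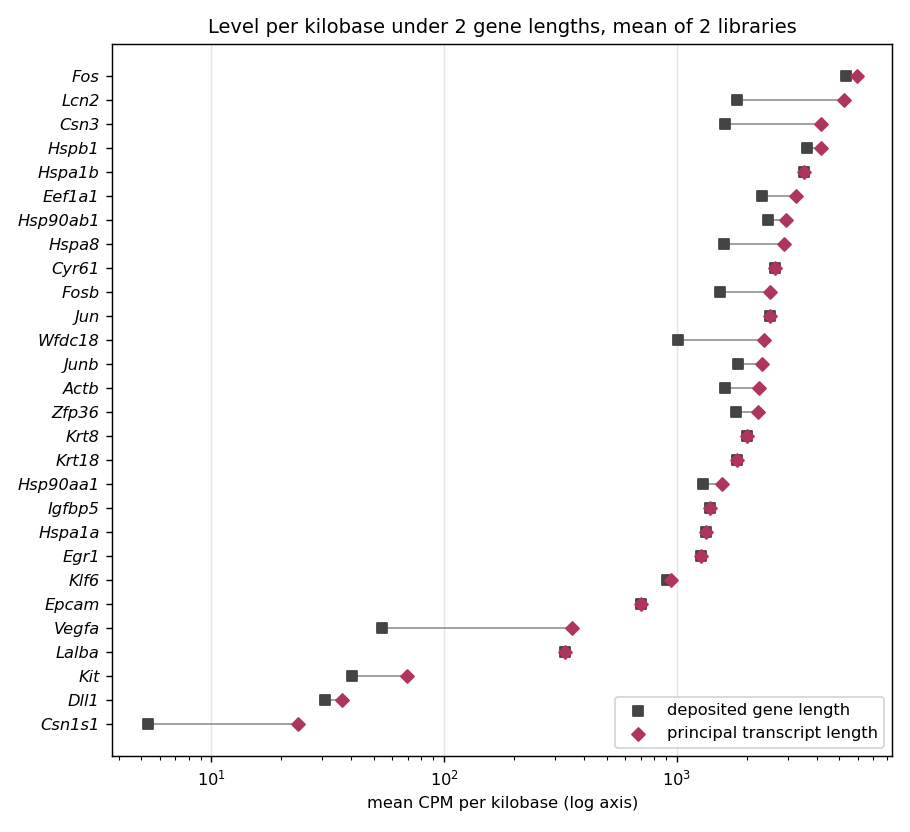
Mean CPM per kilobase over both libraries (log axis) of the 20 genes highest by CPM and 8 further named genes, with the deposited gene length (grey squares) and with the length of the principal transcript (red diamonds), joined by a line. Lcn2, Csn3, Wfdc18, Vegfa and Csn1s1 move far to the right, and Jun, Cyr61, Krt18, Epcam and Lalba do not move visibly.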

How the data were processed

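Poly(A) RNA of the 2 unirradiated libraries was analysed. The authors deposited raw counts per gene for each library, with gene names, positions, lengths in bases and transcription factor families as further columns, per the file headers. The submitters' processing notes name the mm10 build, HTSeq 0.6.1, STAR 2.5 and DESeq2, whose version, like the annotation release and how reads were counted, is not given in the sources used here. Per the labels' protocols cDNA was randomly primed and the kit was non-directional. The 5 other columns of sample values in the files were not used. Of 54495 gene IDs found in GENCODE M21, 98.0% had a length equal to the M21 exon union.

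CPM is the count divided by the library total, and CPM per kilobase divides it by the deposited length. Values are descriptions of 1 group of 2, so no test was made, and SDs are over 2 libraries. The group described and the 49 gene lists, with 917 symbols, were chosen with earlier results of these data known. Named were the marker genes, the 20 highest genes on each scale, up to 6 highest members of a list and its members with 3 or fewer counts in each library, any member of lists of up to 12, the 5 genes furthest apart between libraries each way, Ptprc and Pecam1. Some genes under this rule are not reported here. Other names are marked in the text, and lower members given to close a list's range were also chosen after their values were seen. Groups are said not to overlap where both libraries of a gene lie above both of another. Alternatives were TMM scaling with edgeR 4.0.16 in R 4.3.3, totals without mitochondrial or the 10 most abundant genes, other detection limits and each library alone. The steps, in Python 3.11.15 with pandas 2.3.3, were tested on simulated data. Promoter windows are RefSeq's on GRCm38.p6.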

Additional observations from a re-analysis of the deposited data

How the results depend on the processing

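With each library alone, the share of the 10 most abundant genes ran from 8.12% to 8.18%, that of the 100 most abundant from 25.0% to 25.6%, detected genes from 13898 to 13969, milk proteins from 0.655% to 0.741%, defence proteins from 1.12% to 1.20%, mitochondrial messenger RNAs from 1.20% to 1.24%, and genes shared by the top 50 of both scales from 36 to 37. As a share of summed CPM per kilobase, the top 10 held 14.5% and the top 100 38.2%, and milk proteins, defence proteins and mitochondrial messenger RNAs held 0.588%, 1.73% and 2.88%. With totals free of the mitochondrial genome the top 10 held 8.28% and the top 100 24.7%. Without immediate early, heat shock and mitochondrial genes, a setting added after seeing the data, the top 10 held 5.61%. The 2 scales shared 11 of the top 20 and 69 of the top 100. Genes over 2-fold apart numbered 2638 with no filter and 0 at 10 CPM or more in both libraries, against 56. No paired analysis was possible because the result comes from no test. With TMM scaling 46.8% of detected genes were higher in library 2, and 11 of 37 immediate early genes against 20 without it. A spread from 2 libraries has little precision, and genes near 3 counts are limited by depth.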
